A study of Mus musculus with 1646 samples.

Results

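The plasminogen activation system and its serpins were examined in mesenchymal cells of the mouse colon through 9 genes chosen by name, out of 46517 gene rows in the count table. They were the secreted serpins *Serpine2* and *Serpinf1*, the serpin-family collagen chaperone *Serpinh1*, the plasminogen activators *Plat* and *Plau*, the urokinase receptor gene *Plaur*, and the anticoagulant genes *Tfpi*, *Thbd* and *Procr*. Every member had a row in the table, matched by Ensembl identifier to its symbol in GENCODE vM21, and every member passed the filter on low counts in each of the 5 comparisons below. No exon of another gene overlapped a member.

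The data were SmartSeq2 libraries of 1646 single colon cells, each cell a library with full-length cDNA and no molecular identifiers. All cells came from male mice aged 10 to 20 weeks and were sorted as CD31-negative events, which leaves out endothelial cells, from 4 reporter lines that mark mesenchymal cells. Acta2GFP mice (567 cells on 2 plates, tissue digested with elastase) carry a green fluorescent protein transgene under the *Acta2* promoter, Cspg4dsRED mice (91 cells, 1 plate) a red one under *Cspg4*, PdgfraGFP mice (2 plates) a nuclear histone-GFP fusion at the *Pdgfra* locus, and PdgfrbGFP mice (761 cells, 4 plates) a GFP transgene under *Pdgfrb*. The authors' cluster of each cell was taken from the sample labels, and the names of the 8 clusters follow the study: 1307 fibroblasts from the crypt base (cluster 7), base to middle (5), middle (1), middle to apex (6) and apex (2), and mural cells, namely pericytes (4), vascular smooth muscle cells or SMC (3) and interstitial SMC (8). No animal received a treatment. The reporters only enriched cells, so a line sets which clusters it could supply: 52 of the 56 interstitial SMC were Acta2GFP cells, and PdgfraGFP gave no vascular SMC.

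Plasminogen is a circulating zymogen that tissue-type plasminogen activator, the product of *Plat*, or urokinase, the product of *Plau*, cleaves into plasmin, a protease that dissolves fibrin and degrades matrix. Urokinase acts at the cell surface when bound to its receptor, encoded by *Plaur*, and secreted serpins trap both activators, plasmin and thrombin in inactive complexes. On vessel walls, thrombomodulin (*Thbd*) binds thrombin and the endothelial protein C receptor (*Procr*) presents protein C to that complex for activation, while tissue factor pathway inhibitor (*Tfpi*) blocks the start of coagulation. Thrombomodulin and the protein C receptor are best known from endothelium, which the sort removed.

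Promoter sequence is shown for 4 members whose levels differed along the crypt axis or between fibroblasts and mural cells, so that they can be set side by side. RefSeq windows on GRCm38.p6 held an entry for 6 of the 9 members, and the stretches printed are cut where an annotated exon begins. In all, 4 short motifs were searched on both strands in the 250 bases before the start: the AP-1 site TGANTCA, which 6.75% of 32851 windows held, the GC box GGGCGG (32.7%), the TATA box TATAAA (12.4%) and the forkhead site TGTTTAC (3.17%). Capitals mark matches, and the sequences run 5′ to 3′ on the strand of the gene.
*Procr*, higher in apex fibroblasts, chr2:155750967-155751116, plus strand: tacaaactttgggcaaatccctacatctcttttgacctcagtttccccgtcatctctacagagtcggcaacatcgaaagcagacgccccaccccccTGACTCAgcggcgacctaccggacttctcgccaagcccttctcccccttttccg
*Plaur*, higher in fibroblasts than in mural cells, chr7:24462233-24462482, plus strand: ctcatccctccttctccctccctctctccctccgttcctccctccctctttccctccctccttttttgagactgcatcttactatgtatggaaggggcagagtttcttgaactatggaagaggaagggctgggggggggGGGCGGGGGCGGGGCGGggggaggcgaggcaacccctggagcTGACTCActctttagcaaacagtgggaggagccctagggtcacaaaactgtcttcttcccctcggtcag
*Serpine2*, lower in apex fibroblasts, chr1:79858697-79858915, minus strand: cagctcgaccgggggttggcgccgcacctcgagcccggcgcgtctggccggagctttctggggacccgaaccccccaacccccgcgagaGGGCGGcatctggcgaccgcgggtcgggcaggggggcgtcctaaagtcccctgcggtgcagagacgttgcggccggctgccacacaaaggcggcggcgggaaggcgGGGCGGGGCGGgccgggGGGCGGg
*Serpinf1*, lower in apex fibroblasts, chr11:75422702-75422873, minus strand: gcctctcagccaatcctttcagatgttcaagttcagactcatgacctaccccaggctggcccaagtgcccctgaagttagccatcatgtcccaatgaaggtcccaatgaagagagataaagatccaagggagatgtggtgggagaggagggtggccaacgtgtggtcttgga
*Procr* held 1 AP-1 match and no match to the other motifs. *Plaur* held 1 AP-1 match 69 bases before its start and, farther from it, 3 GC boxes that overlap or adjoin each other. *Serpine2* held GC boxes only, 6 in the whole window and 4 in the stretch shown, and *Serpinf1* held none of the searched letters. A match is a description of these bases.

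Gene counts per cell ranged from 47598 to 1494292, with a median of 248628, and the cluster medians lay between 118252 in interstitial SMC and 359677 in vascular SMC. Levels below are mean counts per 500000 gene counts, taken over the cells of a cluster within a line (at least 10 cells) and then given as mean ± SD over lines, and a level per kb of exon is given where 1 gene is set against another. The labels name lines and plates but no mouse, so n is the number of lines. The labelled cell types matched their markers: the summed level of 6 fibroblast genes was 4250 to 9950 in the fibroblast clusters against 295.6 to 2303 in the mural clusters, and that of 7 mural genes was 5816 to 10665 in the mural clusters against 57.2 to 1781 in fibroblasts. The authors annotated clusters from such markers and removed cells with clear endothelial or immune signatures. Neither this match nor the low single markers of other cells is therefore an independent check. Single defining markers of other cells were low. The cluster mean was at most 12.9 for endothelial *Pecam1*, 0.687 for *Cdh5*, 0.251 for immune *Ptprc* and 1.30 for epithelial *Epcam*. Mesothelial *Msln* was at 0 in all 8 clusters. Sums over wider lists were not all low. By line, the sum of 10 endothelial genes reached 396.035 in pericytes, 380.1 at the crypt base and 335.9 in cluster 6, against 81.5 in vascular SMC. The sum of 2 genes of interstitial cells of Cajal reached 447.2 in pericytes, 363.8 in vascular SMC and 219.6 at the apex. The part of such transcripts in the levels below was not tested. The summed level of 16 immediate early and dissociation-responsive genes was highest in apex fibroblasts (11920 to 18647 over lines), next to vascular SMC (8457 to 14842) and interstitial SMC (9658), against 3483 to 5685 in clusters 1, 5 and 7 together and 1115 to 2095 in cluster 6. Plate 075s of PdgfrbGFP stood apart. Its summed level of these genes was 11633 in cluster 5 against 3388 on plate 073s of the same line, and low counts of endothelial genes were more widespread on it (mean log2(level + 1) in cluster 2 of 2.50 against 0.890), and without it the members called in the 5 comparisons below, in their order, were 4, 4, 1, 0 and 2.

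*Serpine2*, on chromosome 1 (79794197-79861180, minus strand), encodes protease nexin-1, a secreted inhibitor of thrombin, urokinase and tissue-type plasminogen activator. Its level was 263.4 ± 67.2 in vascular SMC (n = 3), 210.9 ± 8.2 in pericytes (n = 2), 178.6 ± 61.8 in cluster 5 (n = 4), 178.3 ± 14.2 in cluster 1 (n = 3) and 78.8 ± 45.9 in the crypt base cluster (n = 3). In apex fibroblasts it was 2.50 in Acta2GFP, 0.931 in PdgfraGFP and 17.5 in PdgfrbGFP. It was 4.81 and 1.38 in the 2 lines with cluster 6 cells, and 3.75 in the 1 line with interstitial SMC. By line the clusters fell into a high and a low set without overlap: the lowest line value of the first 5 clusters was 47.6 and the highest of the other 3 was 17.5. By plate they overlapped, since Acta2GFP crypt base cells had 11.96 on 1 plate (62.9 on the other) and PdgfrbGFP apex cells 26.6 on plate 075s. Within the high set, the line values of vascular SMC, pericytes, cluster 5 and cluster 1 overlapped between neighbours, and those of cluster 1 and the crypt base did not.

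*Serpinf1* (chromosome 11, 75409769-75422701, minus strand) encodes pigment epithelium-derived factor, a secreted serpin without protease inhibitory activity that is known as an inhibitor of vessel growth. Its mean level was highest in cluster 5, at 405.99 in Acta2GFP, 813 in Cspg4dsRED, 342.8 in PdgfraGFP and 385.3 in PdgfrbGFP. It was 395.7, 285.2 and 269.99 in the crypt base cluster and 141.5, 85.5 and 136.98 in the middle cluster (Acta2GFP, PdgfraGFP and PdgfrbGFP). The line values of cluster 5 and the crypt base overlapped, and Cspg4dsRED had too few crypt base cells for a mean. In these clusters the gene was present in every line, with no overlap between cluster 1 and the crypt base. Elsewhere the cluster means were 5.05 to 18.6, and the highest line value was 35.8, in PdgfrbGFP pericytes, where Cspg4dsRED pericytes had 1.35.

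*Serpinh1* (chromosome 7, 99345376-99353239, minus strand) encodes HSP47, an endoplasmic reticulum protein that folds procollagen and inhibits no protease. It ranged from 178.6 in interstitial SMC to 453.9 ± 96.2 in apex fibroblasts (n = 3), and the line values of all neighbours in that order overlapped. Vascular SMC of PdgfrbGFP had 359.9, those of Cspg4dsRED 179.7 and those of Acta2GFP 101.9, a wide spread over lines. Per kb of exon it was at a level of 185.8 in apex fibroblasts and 180.4 in cluster 1, beside 206.4 for *Serpinf1* in cluster 5 and 31.8 for *Serpine2* in vascular SMC.

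*Plat* (chromosome 8, 22757727-22782844, plus strand), the tissue-type activator that works best on fibrin, was highest at the crypt base, where the 3 lines had 304.3 (Acta2GFP), 264.5 (PdgfraGFP) and 274.3 (PdgfrbGFP), above every line mean of cluster 5, although from summed counts the PdgfrbGFP base (260.4) lay below cluster 5 of Acta2GFP (276.5) and Cspg4dsRED (278.9). It was 204.4 ± 45.4 in cluster 5 (n = 4) and 198.2 ± 68.4 in the apex cluster (n = 3), and these overlapped. Between them along the axis, the middle cluster had 35.3, 41.97 and 55.3 in the same 3 lines, and cluster 6 had 12.3 and 49.3. The level of *Plat* was thus higher at both ends of the fibroblast axis than in the middle cluster. For cluster 6 it varied, since the PdgfraGFP cells had 103.05 on 1 plate and 3.26 on the other, and 105.3 from summed counts, near the 113.5 of Acta2GFP apex cells. Among mural cells it was 79.2 ± 9.9 in vascular SMC (n = 3), 52.2 ± 10.3 in pericytes (n = 2) and 8.67 in interstitial SMC. The line means of vascular SMC and pericytes did not overlap, but a few cells carried the pericyte means (94.8% and 88.2% of counts in the 10% of cells with most), and from summed counts the order turned, at 75.97 in pericytes and 68.8 in vascular SMC.

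*Plau* (chromosome 14, 20836660-20843385, plus strand), the urokinase gene, was at 330.05 in Acta2GFP, 382.5 in PdgfraGFP and 428.4 in PdgfrbGFP apex fibroblasts. Interstitial SMC followed at 127.2 in their 1 line, with 138.5 on 1 Acta2GFP plate and 89.4 on the other. In the other 6 clusters the mean was 2.70 to 10.5, and the highest line value was 22.4, in PdgfraGFP cells of cluster 5. No line value of these 6 clusters reached that of interstitial SMC or apex fibroblasts. Per kb the level of *Plau* in apex fibroblasts was 160.7 against 31.8 for *Plat* in the same cells, whereas at the crypt base it was 3.09 against 45.03.

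*Plaur* (chromosome 7, 24462484-24475968, plus strand), the gene of the lipid-anchored urokinase receptor, was low in every cluster. Its level was 24.95 ± 10.1 at the crypt base (n = 3), 22.8 ± 3.24 in the middle (n = 3), 18.4 ± 2.62 at the apex (n = 3), 16.4 in interstitial SMC and 12.5 ± 5.91 in cluster 5 (n = 4). It was 0.728 ± 0.739 in vascular SMC, the lowest mean, at 1.58, 0.306 and 0.297 in Acta2GFP, Cspg4dsRED and PdgfrbGFP. The line values of crypt base, middle and apex overlapped, while both lines of cluster 6 (5.51 in Acta2GFP and 3.73 in PdgfraGFP) lay below the apex lines (16.8 to 21.4). Per kb its level at the apex was 7.02.

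*Tfpi* (chromosome 2, 84432855-84476775, minus strand), the secreted inhibitor of the tissue factor complex, ranged from 32.6 ± 12.3 at the crypt base (n = 3) to 68.3 ± 41.5 in pericytes (n = 2). Every neighbouring pair in this order overlapped. The spread within pericytes, 97.7 in Cspg4dsRED against 38.998 in PdgfrbGFP, was wider than the distance between most cluster means.

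*Thbd* (chromosome 2, 148404466-148408188, minus strand), which encodes thrombomodulin, was at 1040.0 in Acta2GFP and 735 in PdgfraGFP cells of cluster 6, above every other line value of the gene. It was 317.5 ± 68.7 at the crypt base, 268.6 ± 49.4 in the middle (both n = 3) and 262.4 ± 47.5 in cluster 5 (n = 4), and these overlapped. In apex fibroblasts it was 38.5 in Acta2GFP, 63.9 in PdgfraGFP and 107.8 in PdgfrbGFP. Mural levels were of similar size to the apex, with 90.5 in interstitial SMC, 76.96 ± 95.6 in pericytes (9.39 in Cspg4dsRED and 144.5 in PdgfrbGFP) and 31.8 ± 19.6 in vascular SMC. In every line, fibroblasts of clusters 1, 5 and 7 thus had a *Thbd* level (255.97 to 295.7) above that of pericytes and vascular SMC in any line.

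*Procr* (chromosome 2, 155751117-155755471, plus strand), which encodes the endothelial protein C receptor, was at 589 and 572 in the 2 lines of cluster 6 and at 421.3, 370.1 and 418.98 in the apex cluster (Acta2GFP, PdgfraGFP and PdgfrbGFP). Pericytes had 188.9 in Cspg4dsRED and 346.04 in PdgfrbGFP. Vascular SMC had 57.1, 71.3 and 116.1 in Acta2GFP, Cspg4dsRED and PdgfrbGFP. By line these 4 clusters were separated from each other and from the rest without overlap, in that order. The other 4 cluster means were 9.37 to 17.7, with no line value above 25.6. Per kb the level of *Procr* in cluster 6 was 285.9, beside 238.4 for *Thbd*, and in apex fibroblasts 198.6 beside 18.8.

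**Figure D1:**
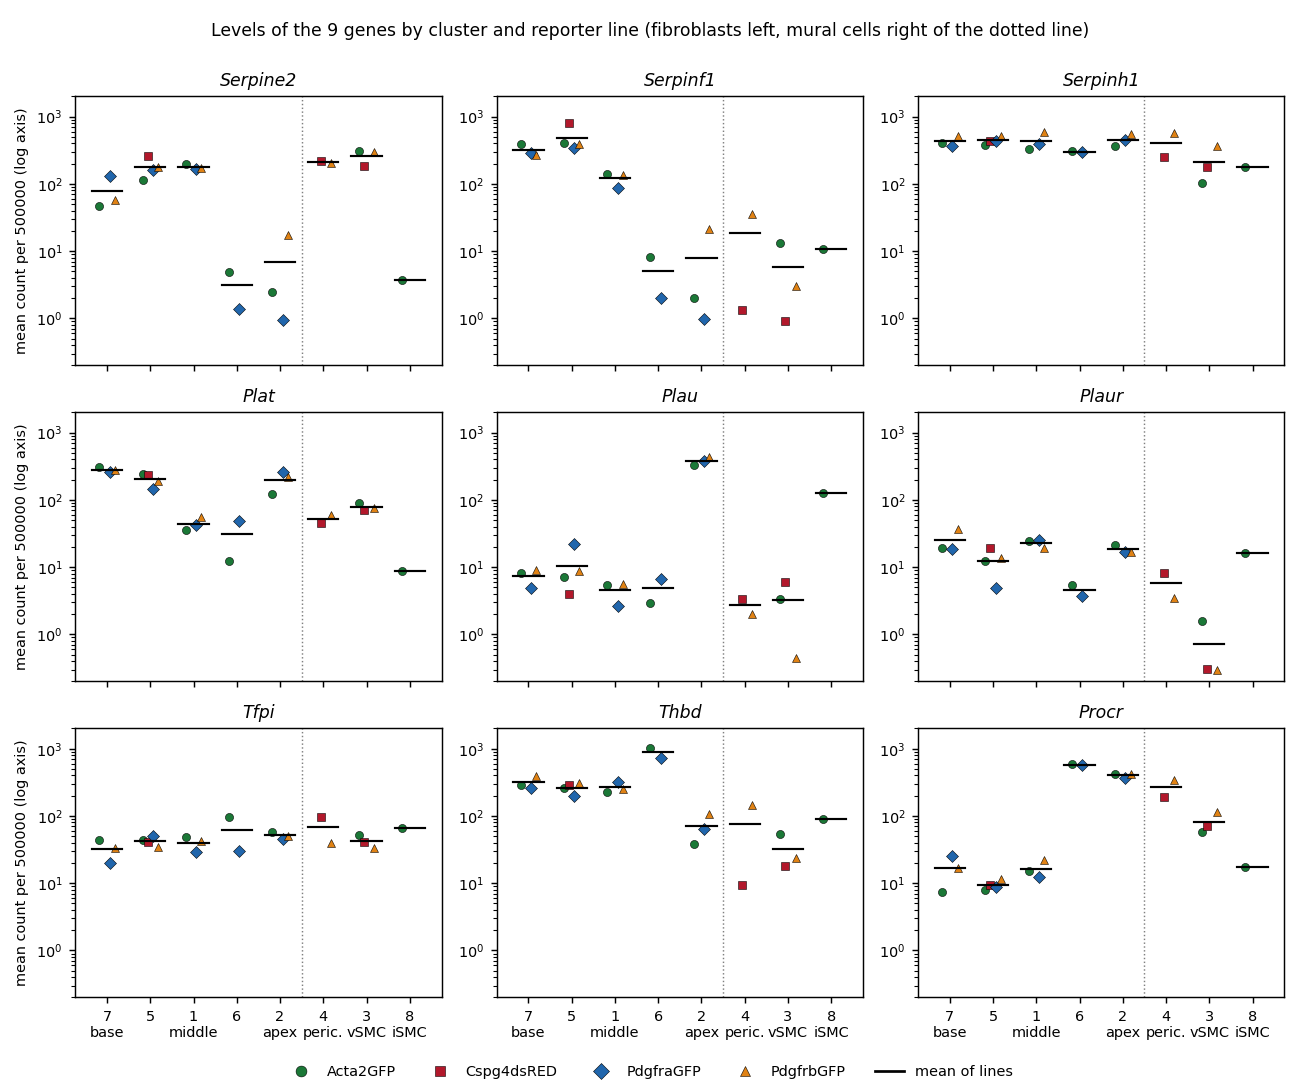
Level of the 9 genes in the 8 clusters, as mean counts per 500000 gene counts on a log axis; each point is 1 reporter line with at least 10 cells of the cluster and each bar is the mean over lines. *Plau* stands high in the apex cluster (330.05 to 428.4) and in interstitial SMC (127.2), *Procr* in clusters 6 and 2, *Thbd* in cluster 6, and *Serpine2* and *Serpinf1* are low in clusters 6, 2 and 8.

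The first comparison asked which members separate fibroblasts (4 line sums) from mural cells (3 line sums). *Serpinf1*, *Plat*, *Plaur* and *Thbd* were higher in fibroblasts, and no member was called lower. 6.57% of the 19173 genes tested were called in either direction, 3.21% as higher and 3.36% as lower. The study's clusters rest on these very counts, so neither this test nor the ones below is independent of the classes, and with sums over cells a change in RNA per cell and a change in the share of a cell type within a class cannot be told apart.

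*Serpinf1* was 262.98, 489, 141.7 and 242.2 in fibroblasts of Acta2GFP, Cspg4dsRED, PdgfraGFP and PdgfrbGFP, and 13.6, 1.15 and 21.2 in mural cells of the 3 lines that had them. The groups did not overlap, and the log2 fold change was 4.88 ± 0.95 (SE; edgeR quasi-likelihood test, Benjamini-Hochberg adjusted p = 0.0152). *Thbd* was 252.4 to 297.7 in the fibroblasts of the 4 lines and 13.4 to 92.3 in mural cells, again without overlap (log2 fold change 2.49 ± 0.50, edgeR adjusted p = 0.0171). *Plat* was 139.7 to 228.3 against 36.7 to 65.6, also without overlap (1.72 ± 0.32 on the log2 scale, edgeR adjusted p = 0.0122). *Plaur* was 14.5 to 26.95 against 2.19 to 11.99, the nearest pair of values being PdgfraGFP fibroblasts and Acta2GFP mural cells, most of which (52 of 84) were interstitial SMC (log2 fold change 2.86 ± 0.66, edgeR adjusted p = 0.0306).

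*Plau* (54.3 ± 32.8, n = 4, against 29.2 ± 44.1, n = 3), *Procr* (78.6 ± 57.6 against 136.3 ± 101.8), *Serpine2* (128.8 ± 23.8 against 183.7 ± 67.2), *Tfpi* (37.2 ± 9.95 against 57.9 ± 16.7) and *Serpinh1* (443.6 ± 78.9 against 282.8 ± 172.04) were not called, with edgeR adjusted p from 0.328 to 0.623. For *Plau* and *Procr* the class means hide clusters on both sides that were high and low. These calls depended on which lines were compared. Same-line sums of the 2 classes deviated together, and with the line as a replicate block *Plat* was still called (edgeR adjusted p = 0.0459) while *Serpinf1* (0.0812), *Plaur* (0.0731) and *Thbd* (0.0562) were not. *Plaur* was also not called in limma (0.0763) or, in edgeR, without Cspg4dsRED (0.0903). Without Acta2GFP the same 4 genes missed the threshold (edgeR adjusted p from 0.0849 to 0.0924) and *Plau*, then without the interstitial SMC of that line, was called as higher in fibroblasts (log2 fold change 4.82, edgeR adjusted p = 0.0211). Without PdgfrbGFP edgeR called 0 of the 9 at the adjusted threshold and 5 at an unadjusted p under 0.05, beside 1.81% and 15.99% of all genes, and without plate 075s the 4 were called. Over the alternatives the log2 fold change was 3.89 to 5.80 for *Serpinf1*, 1.75 to 3.37 for *Plaur* and 2.03 to 2.90 for *Thbd*.

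Along the axis from crypt to surface, apex fibroblasts (3 line sums) were set against clusters 1, 5 and 7 together (4 line sums). The activator *Plau* and the receptor gene *Procr* were higher at the apex, and *Serpinf1*, *Serpine2* and *Thbd* were lower there, so the anticoagulant genes *Procr* and *Thbd* moved in opposite directions. These were 5 of 9 members, where 7.26% of the 15893 genes tested were called, 3.5% as higher and 3.76% as lower.

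*Plau* was 330.05, 382.5 and 428.4 in apex fibroblasts of Acta2GFP, PdgfraGFP and PdgfrbGFP, and 6.72, 6.84, 11.6 and 7.34 in clusters 1, 5 and 7 of Acta2GFP, Cspg4dsRED, PdgfraGFP and PdgfrbGFP. No value of 1 group came near the other, and the log2 fold change was 5.86 ± 0.22, or 58.2-fold (edgeR adjusted p = 4e-06). *Procr* was 370.1 to 421.3 against 9.08 to 16.8, likewise far apart (5.16 ± 0.26 on the log2 scale, 35.8-fold, edgeR adjusted p = 3.48e-05). Both genes kept this call in all 10 alternatives, those that left out a line or plate 075s included.

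*Serpinf1* was 1.97, 0.968 and 21.003 in apex fibroblasts (Acta2GFP, PdgfraGFP, PdgfrbGFP) and 220.7 to 527 in clusters 1, 5 and 7 (log2 fold change −5.10 ± 1.02, edgeR adjusted p = 0.0166). *Serpine2* was 2.50, 0.931 and 17.5 against 127.05 to 162.5 (−4.00 ± 1.00, edgeR adjusted p = 0.0422). In both genes the groups did not overlap, and PdgfrbGFP was the highest of the apex lines. By plate, PdgfrbGFP apex cells had 26.6 *Serpine2* on plate 075s (17 cells) and 6.55 on plate 073s (10 cells), and 29.4 and 11.8 *Serpinf1*. Without plate 075s both fell further, to log2 fold changes of −5.51 for *Serpine2* (edgeR adjusted p = 0.000961) and −6.10 for *Serpinf1* (0.00108). Leaving out Acta2GFP ended the call of both (0.204 for *Serpine2* and 0.139 for *Serpinf1*), and *Serpine2* was also not called without PdgfraGFP (0.0753) or Cspg4dsRED (0.0737). Over the alternatives the log2 fold change ranged from −6.48 to −3.42 for *Serpine2* and from −7.29 to −4.71 for *Serpinf1*.

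*Thbd* was 38.5 to 107.8 at the apex against 255.97 to 295.7, without overlap (log2 fold change −1.64 ± 0.31, edgeR adjusted p = 0.014). This call was lost without plate 075s, where apex cells had 66.6 against 180.6 on plate 073s. Without that plate the log2 fold change was −1.29 (edgeR adjusted p = 0.0913), leaving 4 members called. The call was also lost without Acta2GFP (0.0848) or PdgfraGFP (0.0834), and the log2 fold change ranged from −2.07 to −1.29. *Tfpi* (51.3 ± 6.18 at the apex, n = 3, against 35.5 ± 10.5, n = 4), *Plat* (198.2 ± 68.4 against 165.9 ± 51.6), *Plaur* (18.4 ± 2.62 against 20.7 ± 5.72) and *Serpinh1* (453.9 ± 96.2 against 443.05 ± 77.8) were not called (edgeR adjusted p from 0.275 to 0.871). The 16 dissociation-responsive genes moved with this comparison, at a summed level of 11920 to 18647 at the apex against 3483 to 5685, and their part in the 5 calls was not tested. Cluster 6, next to the apex in the study's order, had the lowest such sum, 1115 to 2095, with *Procr* at 572 and 589 and *Plau* at 2.96 and 6.71.

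Cluster 6 itself, with 10 Acta2GFP and 26 PdgfraGFP cells in its 2 lines, was described without a test. It shared the high *Procr* and the low *Serpinf1* and *Serpine2* of the apex cluster, but not its *Plau*, which at 2.96 and 6.71 lay within the line values of clusters 1, 5 and 7 taken singly (2.60 to 22.4), and its *Thbd* was the highest of all. Its summed level of mural genes was 591 to 1781, above the 57.2 to 392.4 of the other fibroblast clusters, and the part of mural transcripts in its values was not tested. Pericytes, the mural cluster highest in *Procr*, had *Thbd* at 9.39 and 144.5.

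Within the lower crypt, the crypt base cluster (3 line sums) was compared with the middle cluster (3 line sums), in a fit that also held cluster 5. *Plat* was 304.3, 264.5 and 274.3 at the base and 35.3, 41.97 and 55.3 in the middle, in the order Acta2GFP, PdgfraGFP and PdgfrbGFP. The 2 groups did not overlap, and the log2 fold change was 2.50 ± 0.29, or 5.66-fold (edgeR adjusted p = 0.000938). It was the only member called, beside 1.83% of the 17153 genes tested (0.968% higher and 0.863% lower), and leaving out Acta2GFP ended the call (0.0574).

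*Serpinf1* was 395.7, 285.2 and 269.99 at the base against 141.5, 85.5 and 136.98 in the middle, and although the groups did not overlap it missed the threshold (log2 fold change 1.38 ± 0.33, edgeR adjusted p = 0.0612). Same-line sums deviated together here too, and with the line as a replicate block it passed (0.00413), as it did in DESeq2 (0.0431), in limma (0.0291) and without the filter on low counts (0.0404). *Serpine2* went the other way, at 47.6, 131.6 and 57.3 against 194.5, 167.9 and 172.5, and was not called (log2 fold change −1.19 ± 0.45, edgeR adjusted p = 0.297). *Thbd* was 317.5 ± 68.7 against 268.6 ± 49.4 (n = 3 each, edgeR adjusted p = 0.403), and the remaining 5 members had log2 fold changes between −0.30 and 0.38 with edgeR adjusted p of at least 0.977.

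Pericytes (2 line sums) and vascular SMC (3 line sums) were compared in a fit of all mural clusters. No member was called at an adjusted p of 0.05 in edgeR, DESeq2 or limma, beside 0.668% of the 16328 genes tested in edgeR (0.263% higher and 0.404% lower), and 2 members, *Procr* and *Plaur*, had an unadjusted p under 0.05, beside 10.9% of all genes. *Procr* was 188.9 and 346.04 in pericytes (Cspg4dsRED and PdgfrbGFP) and 57.1, 71.3 and 116.1 in vascular SMC (Acta2GFP, Cspg4dsRED and PdgfrbGFP). The values did not overlap and both lines with both cell types had the higher value in pericytes, but the test missed the threshold (log2 fold change 1.69 ± 0.47, edgeR adjusted p = 0.175), which it passed only when Cspg4dsRED was left out (0.0231), where 1 pericyte sum remained and the spread came from the other mural sums. *Plaur* was 8.06 and 3.52 against 0.297 to 1.58 (3.68 ± 1.67, edgeR adjusted p = 0.453), where the 10% of pericytes with most held 100% and 96.5% of the counts and single cells reached 262.04 and 250.6. *Serpine2*, high in both, differed by a log2 fold change of −0.17 ± 0.41 (edgeR adjusted p = 0.956), and the other 6 members had adjusted p from 0.528 to 0.989.

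Interstitial SMC, the muscle cells outside vessel walls, gave 1 line sum, whose spread was assumed to equal that of the other mural sums, against 3 of vascular SMC. *Plau* was 127.2 in interstitial SMC and 3.32, 6.07 and 0.447 in vascular SMC of Acta2GFP, Cspg4dsRED and PdgfrbGFP (log2 fold change 6.27 ± 1.22, edgeR adjusted p = 0.0326). *Serpine2* was 3.75 against 309.1, 186.2 and 294.9 (−6.02 ± 0.76, edgeR adjusted p = 0.00398). On this 1 sum *Plau* was higher and *Serpine2* lower, the same signs as in apex fibroblasts against clusters 1, 5 and 7. *Plat*, the other activator gene, had log2 fold changes of −3.31 here and 0.16 at the apex. Of all genes tested 1.04% were called (0.398% higher and 0.643% lower), and their median log2 fold change was −0.31, so values here are read relative to that shift. *Serpine2* kept its call in the 8 alternatives that could be fitted, but 7 of them use the same interstitial cells of 1 line with a borrowed spread, and at least 3 cells per sum adds the 4 interstitial cells of PdgfrbGFP and, to the fit of all mural clusters, 3 pericytes of Acta2GFP (edgeR adjusted p = 0.0124). *Plau* lost it with at least 3 cells per sum (edgeR adjusted p = 0.058), in limma (0.126) and with the line as a block (0.417), where the classes are compared within Acta2GFP alone, and its log2 fold change ranged from 5.18 to 7.03.

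*Plat* was 8.67 in interstitial SMC against 71.1 to 90.3 in vascular SMC and was not called in edgeR (log2 fold change −3.31, adjusted p = 0.145), but was in DESeq2 (0.00184), in limma (0.0391) and in edgeR without Cspg4dsRED (0.00591). *Procr* was 17.7 against 57.1 to 116.1, *Thbd* 90.5 against 17.8 to 54.2 and *Plaur* 16.4 against 0.297 to 1.58, none of which was called (edgeR adjusted p from 0.445 to 0.679). *Serpinf1*, *Tfpi* and *Serpinh1* had adjusted p from 0.848 to 0.988. Interstitial SMC were the shallowest cluster, and the part of depth in these values was not tested.

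**Figure D2:**
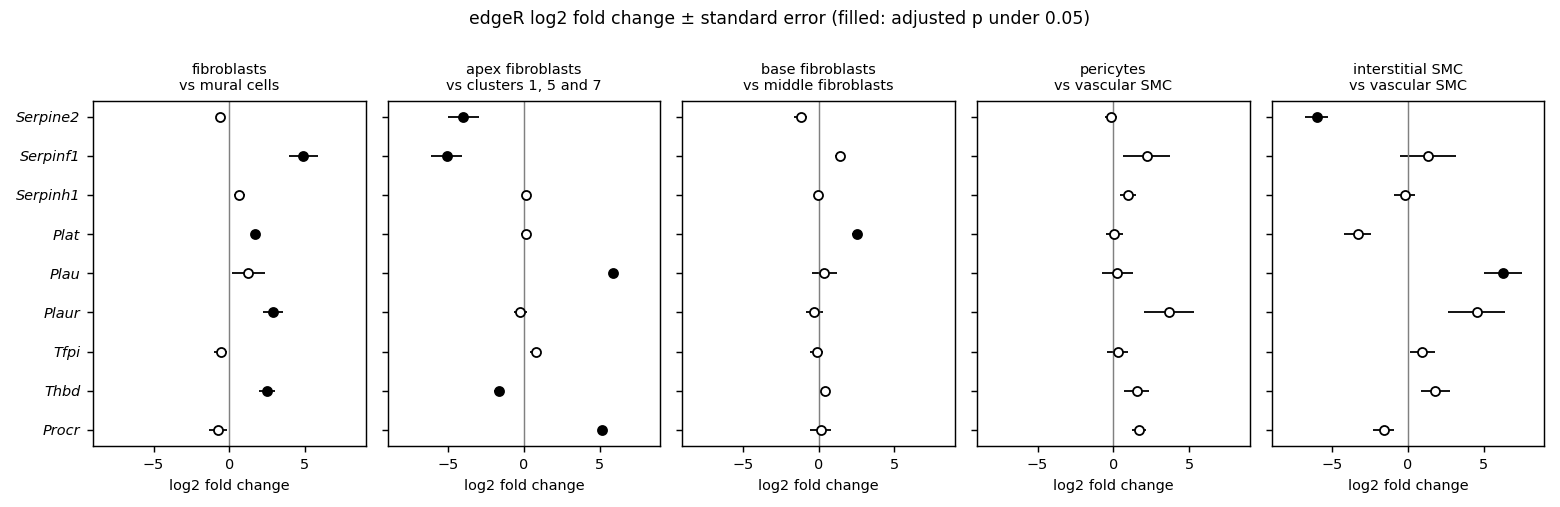
Log2 fold change of each of the 9 genes in the 5 comparisons, with bars of 1 SE derived from the F of edgeR's quasi-likelihood test. Filled points passed a Benjamini-Hochberg adjusted p of 0.05. *Plau* and *Procr* lie far to the right in apex fibroblasts (5.86 and 5.16), *Plat* alone passed between crypt base and middle, and no point passed between pericytes and vascular SMC.

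The rest of the pathway was followed through a list of 47 other genes, of which 46 had a row. Between fibroblasts and mural cells, 31 of the list were tested, 8 were called higher and 2 lower (3.21% and 3.36% of all genes), with a median log2 fold change of 0.96. *Serpina3n*, a secreted inhibitor of serine proteases such as granzyme B, was higher in fibroblasts (4.13, edgeR adjusted p = 0.00667), as was *Lrp1*, the endocytic receptor that clears protease–serpin complexes (2.10, 0.0135). *F2rl3*, the thrombin receptor PAR4 (6.98, 0.00329), and *Plod2*, a collagen lysyl hydroxylase (2.78, 0.00936), were also higher. *Vtn*, whose product vitronectin is an adhesive glycoprotein of matrix and plasma, was lower in fibroblasts (−5.77, 0.0146), at 470.3 ± 158.97 in pericytes (n = 2), and so was *Serpini1*, the neuroserpin gene that inhibits tissue-type plasminogen activator (−3.20, 0.00149). With the line as a block *Vtn* (0.0594) and *Plod2* (0.0533) were not called. Leaving out a line also ended calls: that of *Serpina3n* without Acta2GFP (0.0555), of *Vtn* (0.0835) and *Lrp1* (0.054) without Cspg4dsRED, and of *Plod2* (0.0758) and *Lrp1* (0.0951) without PdgfrbGFP. Over the alternatives the log2 fold change ranged from 3.28 to 7.46 for *F2rl3*, lowest in limma, which adds 1 to each mean level, and from 3.45 to 4.98 for *Serpina3n*. *F3* (tissue factor), *Serping1* (C1 inhibitor) and *F2r* (the thrombin receptor PAR1) were not called, with edgeR adjusted p of 0.0563, 0.121 and 0.958, though *F3* passed in DESeq2 (0.00212), in limma (0.0086) and, in edgeR, without the filter (0.0413) or Cspg4dsRED (0.0127).

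At the apex 29 of the list were tested, 3 were called higher and 5 lower (3.5% and 3.76% of all genes), with a median log2 fold change of −0.73. The 3 higher genes were the thrombin receptors *F2rl3* (8.08, edgeR adjusted p = 0.0011) and *F2r* (2.63, 0.00354), and *F3* (1.78, 0.0043), the initiator of coagulation. All 3 kept the call in every alternative. *F2r* was at 733 ± 77.6 in apex fibroblasts against 12.4 ± 6.02 at the crypt base and 150.8 ± 34.4 in the middle (n = 3 each). *F3* was at 448.7 ± 23.5 in cluster 6 (n = 2) and 345.7 ± 89.1 at the apex (n = 3), against 186.3 ± 48.9 in cluster 5 (n = 4), 117.3 ± 20.5 at the crypt base (n = 3) and 9.07 ± 12.003 in pericytes (n = 2). The lower genes were *Vldlr*, a receptor for serpin complexes (−6.16, 0.0134), *Tfpi2* (−6.06, 0.0451), *Serpini1* (−4.26, 0.0101), *Serpina3n* (−3.10, 0.0179) and *Lrp1* (−2.06, 0.00723). None of these 5 was called under all alternatives. Without Acta2GFP the call was lost for *Vldlr* (0.108), *Tfpi2* (0.271), *Serpini1* (0.135) and *Serpina3n* (0.148), and without PdgfraGFP for *Lrp1* (0.0517), *Serpini1* (0.0603) and *Tfpi2* (0.175). *Tfpi2* also lost it without PdgfrbGFP (0.0845) and with the line as a replicate block (0.0563). Over the alternatives the log2 fold change ranged from −8.18 to −3.62 for *Vldlr*, −8.18 to −2.45 for *Tfpi2*, −5.00 to −3.22 for *Serpini1* and 5.78 to 9.62 for *F2rl3*. *Serping1* differed little (0.07, 0.891).

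Between crypt base and middle, 29 were tested, 1 was higher and 4 lower (0.968% and 0.863% of all genes). *F3* was higher at the base (1.85, edgeR adjusted p = 0.00384), and *F2r* (−4.12, 0.00652), *Serpina3g* (−2.99, 0.00927), *Serpina3n* (−2.52, 0.00652) and *Gas6*, a vitamin K-dependent growth factor (−2.03, 0.0367), were lower. These 5 calls depended on single lines. Over the alternatives the log2 fold change ranged from −4.94 to −3.56 for *F2r*, −3.89 to −2.59 for *Serpina3g* and −3.06 to −2.45 for *Serpina3n*. It ranged from 1.18 to 2.01 for *F3* and from −2.41 to −1.64 for *Gas6*. Of all genes, 0.201%, 0.558% and 0.375% were called without Acta2GFP, PdgfraGFP and PdgfrbGFP. *F3*, *F2r*, *Serpina3g* and *Serpina3n* each missed the threshold without Acta2GFP (edgeR adjusted p from 0.0665 to 0.222), PdgfraGFP (0.0518 to 0.0948) or PdgfrbGFP (0.097 to 0.264), and *F3* also with at least 3 cells per sum (0.175). *Gas6* missed it without Acta2GFP (0.491) or PdgfrbGFP (0.278), with at least 3 cells per sum (0.0825) and in limma (0.0506). *Lrp1* (0.58) and *Serping1* (−0.18) were not called, but *Lrp1* was with the line as a replicate block (0.0236). None of 28 was called between pericytes and vascular SMC in edgeR or limma, where 8 had an unadjusted p under 0.05 in each (beside 10.9% and 10.5% of all genes), and DESeq2, which called 5.92% of all genes, called 5 (*Anxa2*, *F2r*, *Lrp1*, *Serpina3g* and *Vtn*). Of the genes followed through every alternative there, *F2r* also passed in edgeR without the filter (4.93e-10) and without PdgfrbGFP (2.64e-08), which leaves 1 pericyte sum with a borrowed spread. In interstitial against vascular SMC, *F2r* (6.71, edgeR adjusted p = 0.00668) and *Anxa2*, whose product binds plasminogen and *Plat* protein at the cell surface (2.31, 0.0361), were higher and *Serpini1* was lower (−6.63, 0.00765), of which *F2r* and *Anxa2* were not called with the line as a block (0.0763 and 0.0797), nor *Anxa2* in limma (0.0771). Plasminogen itself was hardly detected: *Plg* had a mean of at most 0.0236 in any cluster and 0 in 6 of them, and *F7* was 0 in all 8.

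The share of cells with at least 1 count of a gene was taken after thinning each cell to 50000 gene counts, which left out 11 shallower cells. Shares have 95% exact Clopper-Pearson intervals that cover counting error only, since reads of 1 molecule are not independent and cells of a line are not replicates. *Plau* was found in 90.1% of apex cells (95% interval 83.6% to 94.6%) and 72.2% of interstitial SMC (58.4% to 83.5%), but in 20.0% to 26.2% of cells in the other fibroblast clusters and 10.0% of pericytes. As deposited, before thinning, *Plau* was found in 99.2% of apex cells. *Plaur* was found in 33.2% of crypt base cells, 19.8% of apex cells and 2.9% of vascular SMC.

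*Procr* was found in 95.6% of 45 cells of cluster 6, 94.7% of apex cells, 71.4% of pericytes and 55% of vascular SMC, against 22.3% to 30.4% in clusters 1, 5 and 7. *Thbd* was found in 97.8% of cluster 6 and 84.7% to 93.6% of clusters 1, 5 and 7, against 47.3% of apex cells. *Serpinf1* was in 95.5%, 93.4% and 73.8% of cells of the crypt base, cluster 5 and the middle, against 24.4% to 31.1% in the other 5 clusters. These lower shares stand beside levels of 5.05 to 18.6, so a single count in a cell of those clusters says little about its expression, and free RNA in a well cannot be told apart from a low level. *Plat* was in 86.4% of crypt base cells and 54.5% of middle cells, while *Serpinh1* was found in 95% of pericytes. *Tfpi* was in 27.1% to 51.9% of cells in every cluster.

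**Figure D3:**
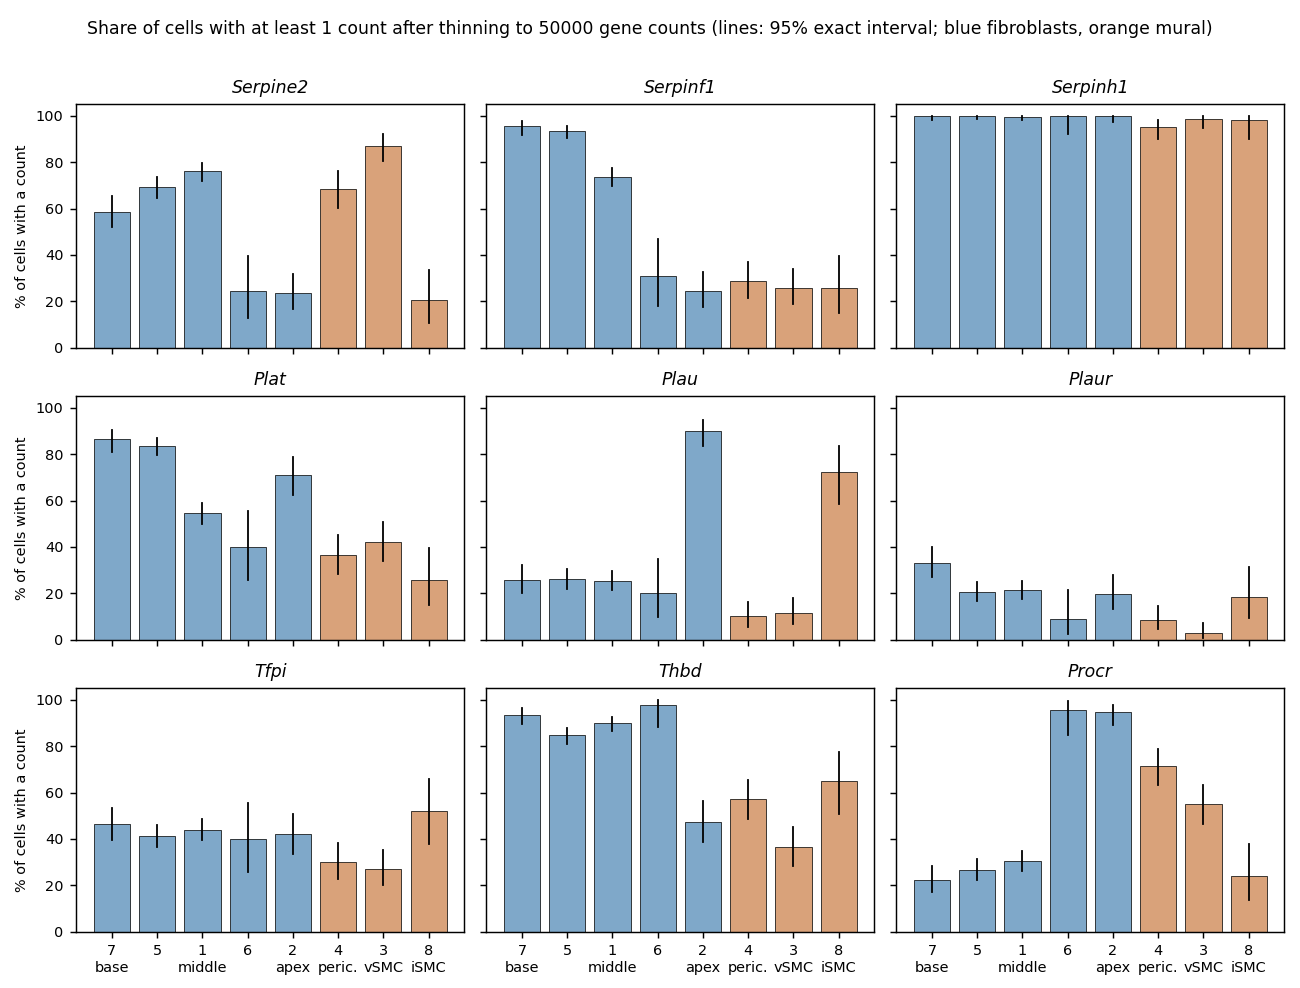
Percent of cells with at least 1 count of each of the 9 genes by cluster, after thinning every cell to 50000 gene counts; bars are 95% Clopper-Pearson intervals. *Plau* reaches 90.1% in apex fibroblasts and 72.2% in interstitial SMC and stays at 26.2% or below elsewhere, and *Procr* reaches 95.6% in cluster 6.

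The activator and its receptor, and the 2 partners of protein C activation, were also counted in the same cells. In apex fibroblasts, 23 thinned cells (17.6%) had counts of both *Plau* and *Plaur*, and 95 had *Plau* alone. In interstitial SMC 5 of 54 cells had both (9.26%), and 0 vascular SMC did, which allows a share of up to 2.14% for cells with counts of both at this depth, not for cells that express both. Most cells with the activator transcript thus had no receptor count at this depth, which the low level of *Plaur* limits. Counts of both *Thbd* and *Procr* were found in 42 of 45 cells of cluster 6 (93.3%) and in 61 apex cells (46.6%), where 63 more had *Procr* alone and 1 had *Thbd* alone. Singly, *Thbd* was in 97.8% and *Procr* in 95.6% of cluster 6 cells, and in 47.3% and 94.7% of apex cells. The joint counts of either pair were not set against such single shares, so association within cells was not tested. In clusters 1, 5 and 7 the picture was the reverse, with 708 of 1125 cells having *Thbd* alone and 19 *Procr* alone.

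**Figure D4:**
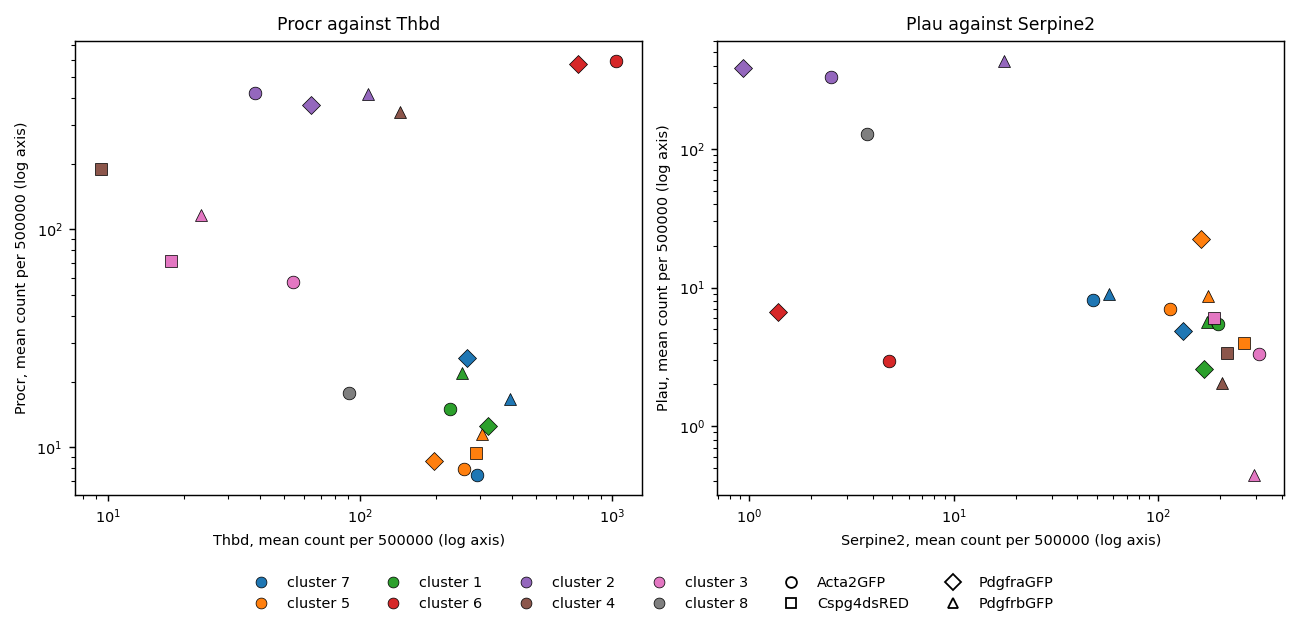
Mean level per 500000 gene counts of 2 pairs of genes on log axes, each point a cluster (colour) within a reporter line (shape). Left, *Procr* against *Thbd*: the 2 points of cluster 6 lie above all others in both genes; right, *Plau* against *Serpine2*: apex points are high in *Plau* (330.05 to 428.4) with *Serpine2* at or below 17.5.

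Likeness of pattern was measured as Pearson's correlation of log2(level + 1) over 21 cluster-by-line means, among 5483 genes with a mean level of at least 20. The points share lines, plates and depth, so the values describe and no test was made. The 3 genes nearest to *Plau* were *Ptprr* (0.929), *Nrg1* (0.921) and *Lgr5* (0.909), and those nearest to *Procr* were *Emid1* (0.896), *Cd200* (0.847) and *Gnb4* (0.838). *Thbd* was nearest to *Steap3* (0.940), *Pcsk6* (0.903) and *Hmcn2* (0.893).

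*Serpinf1* lay nearest to complement *C3* (0.986), *Cd55* (0.9796) and *Il33* (0.979), and *Serpine2* to *C1qtnf7* (0.968), *Asap2* (0.899) and *Gpc3* (0.897). *Serpinh1* lay nearest to *Sdf2l1* (0.928), *Pdia6* (0.883) and *Calr* (0.869), all of the endoplasmic reticulum. *Plat* was closest to *Tnfrsf12a* (0.873), *Ndrg1* (0.824) and *Gm17080* (0.810), *Plaur* to *Scpep1* (0.920), *Kdelr3* (0.906) and *Hexa* (0.881), and *Tfpi* to *Fam129a* (0.811), *Zc3h7a* (0.748) and *Ss18* (0.744). Between members, the correlation was −0.808 for *Serpinf1* and *Procr* and −0.685 for *Serpine2* and *Plau* over the same points.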

How the data were processed

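SmartSeq2 libraries of single colon cells were demultiplexed by the authors with bcl2fastq, trimmed with trim galore and mapped to GRCm38 with TopHat2. Samtools was used for what the methods call doublets, and reads per gene were counted with featureCounts (use of strand is not given in the sources used here). The authors deposited raw counts per gene and cell. The 92 ERCC rows (1.36% of counts) were left out.

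Clusters 7, 5, 1, 6, 2, 4, 3 and 8 held 223, 425, 483, 45, 131, 142, 141 and 56 cells, and PdgfraGFP gave 227 cells. For each line and class with 10 or more cells, 1 sum of counts was made (2202988 to 217742647 counts a sum). Low genes were removed by filterByExpr, TMM factors were computed, and edgeR's glmQLFit and glmQLFTest gave p-values that were adjusted after Benjamini and Hochberg over all genes tested, at a threshold of 0.05. The SE of an edgeR log2 fold change was derived from the test, as its absolute value over the square root of F. With no mouse named, p-values measure only the spread between lines. The members, the lists of other genes and the tests were chosen with earlier results of these data known. All 9 members were named, and of the 47 pathway genes those past the threshold (the 5 with the largest change where more passed) and *F3*, *F2r*, *Serping1* and *Lrp1*, while 1 gene that this rule would name is not reported here. For each member the 3 most correlated genes were named. Alternatives were DESeq2, no filter, at least 3 cells per sum, limma on log2(mean level + 1), the line as a replicate block and each line left out. Leaving out plate 075s was chosen after seeing the data.

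Pairing was checked by correlating deviations of same-line sums from class means over genes. Pearson's r was 0.152 to 0.175 for fibroblasts and mural cells and 0.137 to 0.184 for base and middle, and the pairing comes from the line in the labels. The scripts were tested on simulated data. Versions were DESeq2 1.42.0, edgeR 4.0.16 and limma 3.58.1 under R 4.3.3, and numpy 2.4.6, pandas 2.3.3 and scipy 1.17.1 under Python 3.11.15.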

Additional observations from a re-analysis of the deposited data

Results flagged for a closer look

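In 27 groups of 4 reporter lines, 4 held a value far from the other 3 by Dixon's ratio, at a limit set for 1 in 20 independent groups. These groups share cells, since cluster 5 lies within clusters 1, 5 and 7 and these within the fibroblasts. Their count can therefore not be set against chance. *Serpinf1* in cluster 5 was 813 in Cspg4dsRED, from 13 cells of 1 plate, against 342.8 to 405.99 in the other lines. *Procr* in fibroblasts was 164.3 in PdgfraGFP against 43.4 to 60.04, and 55 apex and 26 cluster 6 cells were among the PdgfraGFP fibroblasts. *Plau* in clusters 1, 5 and 7 was 11.6 in PdgfraGFP against 6.72 to 7.34. A single PdgfraGFP cell there had 732.5, and from summed counts the value was 7.55 against 6.24 to 7.50. *Serpine2* in the same clusters was 127.05 in Acta2GFP against 157.2 to 162.5. Crypt base cells, lower in *Serpine2*, were a larger share of these clusters in Acta2GFP than in any other line. By cluster, Acta2GFP was the lowest line at the crypt base (47.6 against 57.3 and 131.6) and in cluster 5 (114.1 against 162.3 to 262.5). In cluster 1 it was the highest (194.5 against 167.9 and 172.5). All are mean counts per 500000 gene counts, and no cause was tested.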

How the results depend on the processing

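The calls of *Plau* and *Procr* at the apex, and of *Serpine2* in interstitial against vascular SMC, kept their direction and their side of the threshold under every alternative run, the last of these on 1 interstitial sum except with at least 3 cells per sum. Of the alternative log2 fold changes of members, 86.5% kept both, 5.67% lost a call, 2.36% gained one and 5.44% changed sign, and for pathway genes the shares were 84.1%, 10.8%, 2.69% and 2.40%. The cause of these changes was not tested. Of the shares of cells, 88.9% moved by more than their interval with thinning or with a minimum of 10 counts.

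The members called between fibroblasts and mural cells were 4, but 1 with the line as a replicate block and 0 to 4 when 1 line was left out (0 without PdgfrbGFP, 1 without Acta2GFP). At the apex the 5 became 2 to 5 (2 without Acta2GFP, 3 without PdgfraGFP), and 4 without plate 075s, a setting chosen after seeing the data. The replicate block kept all 5 there, with same-line r of 0.0851 to 0.115. Between base and middle the count was 1, but 2 in DESeq2, without the filter, in limma and with the replicate block, and 0 to 2 when a line was left out (0 without Acta2GFP, where edgeR had 2 at an unadjusted p under 0.05, and 2 without Cspg4dsRED). For pericytes it was 0 in every fit that kept more than 1 pericyte sum. In interstitial SMC the 2 became 1 with at least 3 cells per sum, beside 1.29% of all genes. No other setting had more than 1 interstitial sum. On 1 such sum *Plau* also lost its call with the replicate block and in limma, and *Plat* gained one in limma, in DESeq2 and without Cspg4dsRED. The replicate block changed no other call of a member. Interstitial SMC without Acta2GFP could not be run, since no other line had 10 cells of them.

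Changes of sign were all in values that were not called. With limma, *F2r* in fibroblasts against mural cells became 0.64, *Serping1* at the apex −0.090, *Plaur* and *Procr* between base and middle 0.068 and −0.10, and *Plat* in pericytes −0.60. The replicate block gave *F2r* 0.63 and *Serpinh1* in interstitial SMC 1.16. No filter gave *Serpinh1* −0.0078 and *Serping1* −0.040 at the apex. With at least 3 cells per sum, *Plat* in pericytes became −0.42, and *Serpinh1* and *Lrp1* in interstitial SMC 1.12 and 0.17. With 1 line left out, *F2r* in fibroblasts against mural cells ranged from −0.62 to 1.90. At the apex the ranges were −0.018 to 0.17 for *Serpinh1*, −0.17 to 0.45 for *Plat*, −0.70 to 0.015 for *Plaur* and −0.091 to 0.15 for *Serping1*. Between base and middle they were −0.14 to 0.10 for *Serpinh1*, −0.0033 to 0.91 for *Plau*, −1.11 to 0.24 for *Plaur*, −0.45 to 0.039 for *Tfpi* and −1.03 to 0.66 for *Procr*. In pericytes they were −0.54 to 0.13 for *Serpine2*, −2.46 to 3.60 for *Serpinf1*, −0.42 to 0.46 for *Plat*, −0.66 to 0.99 for *Tfpi*, −0.88 to 2.13 for *Thbd* and −4.38 to 2.97 for *F3*, and in interstitial SMC −0.23 to 0.34 for *Serpinh1*.

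Over all genes, 6.57% of those tested were called between fibroblasts and mural cells, against 15.6% in DESeq2, 3.81% without the filter, 3.08% with the replicate block and 1.81% without PdgfrbGFP (36.6% of them higher, beside 48.8%). At the apex the 7.26% called (48.2% of them higher) became 15.4% in DESeq2, 10.9% in limma (37.8% higher) and 1.18% without Acta2GFP (76.6% higher), with 62.3% higher without PdgfraGFP. Between base and middle the 1.83% (52.9% higher) became 6.69% in DESeq2 (40.7% higher), 3.66% in limma (38.4% higher), 3.38% with the replicate block and 0.201% without Acta2GFP (79.4% higher), with 69.8% higher without PdgfrbGFP. For pericytes the 0.668% became 5.92% in DESeq2, 1.85% without the filter and 0% in limma, where 10.5% had an unadjusted p under 0.05. In interstitial SMC the 1.04% (38.2% higher) became 5.87% in DESeq2, 1.84% without the filter (49.3% higher) and 1.89% in limma (55.02% higher), and 0.784% with the replicate block (15.6% higher).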
